A study of Mus musculus with 4 samples.

Results

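Genes of skeletal tissue, tendon and extracellular matrix (ECM) were examined in cardiac neural crest cells (NCCs) with a deletion of integrin-linked kinase (ILK). There were 10 of them: the laminin gene Lamb1-1, the collagen genes Col8a2 and Col9a3, the proteoglycan genes Dcn and Aspn, the microfibril gene Mfap4, Lect1, Fndc5, the tendon gene Scx and Spp1. These members were selected on measured values, since a probe set had to carry one of these names in the authors' deposited table of probe sets that differed between the genotypes. This left 11 probe sets (the groups of probes that each give 1 value on an Affymetrix array), 2 for Scx and 1 for each of the other 9 genes, out of 45037 probe sets other than array controls and 541 genes that the authors' table named alone. The difference between the genotypes is therefore described for these genes, and no test of it is given. The array may hold other probe sets of these genes, but those without a name could not be looked up.

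NCCs came from outflow tracts (OFTs) at E10.5. NKO mutants carried Wnt1-Cre and both floxed ILK alleles, so that ILK was deleted in cells that had expressed Cre under the Wnt1 promoter of the dorsal neural tube. Controls are labelled wild type, whereas the study's methods describe littermates with Wnt1-Cre and 1 floxed allele, so that both genotypes would carry the Cre transgene and the controls 1 intact ILK copy. Cells with lacZ reporter activity were sorted by FACS, tissue was pooled by genotype and further sorts were pooled before RNA extraction. Each genotype had 2 samples that the labels call biological replicates, each on 1 mouse genome array. Ilk itself had intensities of 809 and 801 in controls against 468 and 387 in NKO samples, lower in both as labelled. Its log2 fold change was −0.90, so that much Ilk signal remained in NKO samples. The source of that signal was not tested. Of 17 neural crest markers, only Pax3 and Prrx1 carried a name in the authors' table, with log2 fold changes of 0.44 and 0.24. The sorted identity could therefore not be checked further with crest markers. Named markers of other cell types also had signal in both genotypes, as given below.

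The ECM holds cells in place and presents growth factors to them. Laminins build the basement membrane, collagens form fibrils or networks, and small leucine-rich proteoglycans coat collagen fibrils. Integrins bind many of these proteins from the cell surface, and ILK sits on their inner side, where it links them to actin. Cranial neural crest forms cartilage and bone of the face, whereas cardiac neural crest normally forms smooth muscle and mesenchyme of the OFT.

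The signal of 9 of the 10 genes was lower in each NKO sample than in either control, and that of Spp1 was higher. The intensities below are the authors' normalized values on a linear scale in arbitrary units. Fold changes were taken from log2(intensity + 16), NKO over control, with limma's standard error (SE), and those of dim genes are narrowed by the added 16. The log2 fold changes of the 10 lower probe sets lay between −0.67 and −0.23, and their order ran from Lamb1-1 through Scx, Col9a3, Lect1, Aspn, Fndc5 and the second Scx probe set to Col8a2, Mfap4 and Dcn. Over all probe sets the median was 0.013. Both NKO samples lay below both controls for 18.4% of all probe sets and above both for 24.2%.

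**Figure D1:**
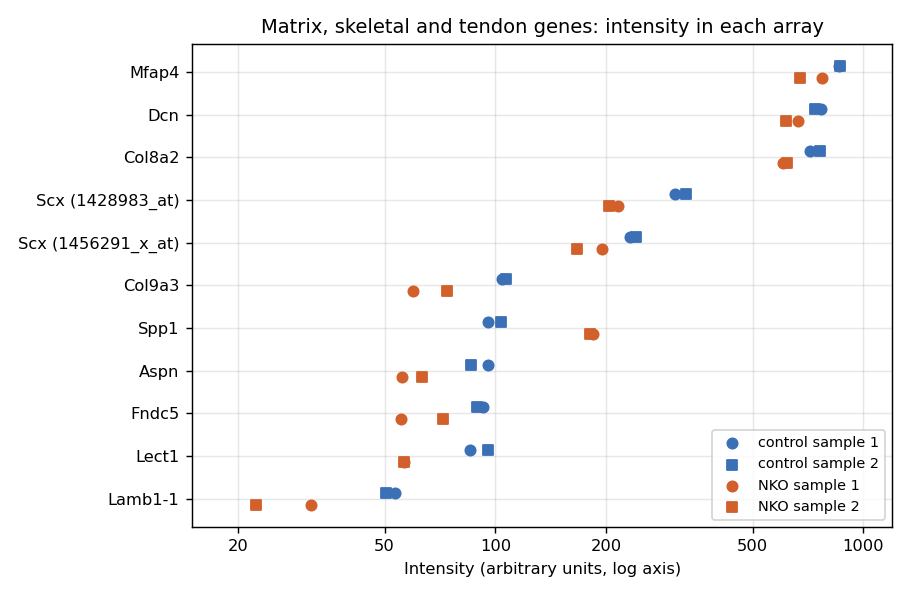
Intensity of each of the 11 probe sets in the 4 arrays, on a logarithmic axis in arbitrary units, with controls in blue and NKO samples in orange (circles, sample 1; squares, sample 2). Both NKO samples lie left of both controls for every gene except Spp1, where they lie right of them.

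Promoter windows of 6 of the 10 genes were matched in the RefSeq table of build GRCm38.p6, Lamb1-1, Col8a2, Lect1, Aspn, Fndc5 and Spp1, each running from 250 bases before to 50 after a start site. They are shown for the members with the lowest and the highest fold change and for the mineralization and cartilage genes Aspn and Lect1. The part before the annotated gene is printed in the direction of transcription, and capitals mark matches on either strand to CANNTG (the E-box bound by basic helix-loop-helix factors such as scleraxis), CAGAC (a Smad-type motif), AACAAT (Sox-type), TATAAA and AACCACA (Runx-type). The Runx-type motif was added after the sequences had been seen.
Spp1, chr5:104434861-104435110, plus strand: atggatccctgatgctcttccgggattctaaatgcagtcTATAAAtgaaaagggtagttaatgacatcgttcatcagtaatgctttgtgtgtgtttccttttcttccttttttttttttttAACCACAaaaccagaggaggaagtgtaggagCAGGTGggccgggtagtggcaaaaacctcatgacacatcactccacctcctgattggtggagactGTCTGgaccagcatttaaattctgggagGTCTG
Lamb1-1, chr12:31265043-31265145, plus strand: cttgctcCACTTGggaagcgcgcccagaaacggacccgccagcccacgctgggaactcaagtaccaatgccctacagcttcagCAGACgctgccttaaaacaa
Lect1, chr14:79662195-79662433, minus strand: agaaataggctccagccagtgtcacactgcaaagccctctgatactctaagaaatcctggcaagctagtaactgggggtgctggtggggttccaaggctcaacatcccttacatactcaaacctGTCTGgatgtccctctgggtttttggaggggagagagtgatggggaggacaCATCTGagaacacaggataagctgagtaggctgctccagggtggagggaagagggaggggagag
Aspn, chr13:49544193-49544442, plus strand: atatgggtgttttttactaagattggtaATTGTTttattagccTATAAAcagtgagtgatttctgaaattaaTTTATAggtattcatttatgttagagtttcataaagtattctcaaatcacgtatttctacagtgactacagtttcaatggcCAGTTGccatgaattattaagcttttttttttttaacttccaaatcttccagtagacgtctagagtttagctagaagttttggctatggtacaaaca

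The windows of the members had no composition in common. GC content was 31.0% for Aspn and 45.3% for the printed window of Spp1, but 82.3% for Fndc5 and 71.7% for Col8a2, with 63.7% for Lamb1-1 and 56.0% for Lect1, around a median of 52.7% over all 32851 windows of the table. An E-box was found in a window of 4 of the 6 genes, Spp1, Lamb1-1, Lect1 and Aspn, and in 72.3% of all windows. CAGAC was found in 3, Spp1, Lamb1-1 and Lect1, and in 49.6% of all. Fndc5 and Col8a2, both GC-rich, held none of the 5 motifs. AACAAT was found in Aspn alone of the 6 and in 10.7% of all windows, TATAAA in Aspn and Spp1 and in 13.6%, and AACCACA in Spp1, starting 129 bases before its start site, and in 5.27%. These matches describe letters and do not show that a factor binds there.

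The member with the lowest fold change encodes a basement membrane protein. Lamb1-1, now named Lamb1, encodes the β1 chain of several laminins, which assemble into sheets and bind integrins. Its intensities were 53.5 and 50.5 in controls against 31.6 and 22.4 in NKO samples. The controls were close together and the NKO samples were apart, with the second NKO sample lowest. The log2 fold change was −0.67 (SE 0.12, n = 2 per genotype), and the linear means differed by −48.2%. This was also the dimmest member, at the 35.8th percentile of all probe sets by mean intensity. Where in the gene its probes lie was not analysed here. No other gene of the 26 on the laminin and basement membrane list was named.

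Both collagen genes had a lower signal. Col9a3 encodes a chain of collagen IX, which decorates the collagen II fibrils of cartilage, and its intensities were 104 and 107 in controls against 59.8 and 73.7 in NKO samples. Its log2 fold change was −0.56 (SE 0.10). Col8a2 encodes a chain of collagen VIII, a network-forming collagen of vessels and of the corneal endothelium, and was much brighter, with intensities of 714 and 764 in controls against 604 and 620 in NKO samples. The genotypes did not overlap for either gene, but Col8a2 had a smaller log2 fold change of −0.27 (SE 0.066). Of 37 collagen genes on the list used here, these were the only 2 with a name in the authors' table, so that values of the other collagens are not reported here.

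The proteoglycan genes Dcn and Aspn also had lower signals. Dcn encodes decorin, which binds collagen fibrils and TGFβ, and had intensities of 769 and 737 in controls against 664 and 617 in NKO samples. Its log2 fold change of −0.23 (SE 0.070) was the smallest of the members. Aspn encodes the related asporin, which binds collagen and which the study calls a negative regulator of osteoblast differentiation. It had the most AT-rich of the printed windows, and its intensities were 95.3 and 85.9 in controls against 55.6 and 63.3 in NKO samples. Aspn thus had a log2 fold change of −0.50 (SE 0.088) on a probe set near the middle of the brightness range. Its probe set carries the suffix _s_at, which Affymetrix uses where probes can match more than 1 transcript. The only other named gene among the 16 small leucine-rich proteoglycans was Ogn, which encodes osteoglycin, at 482 and 475 in controls against 408 and 403 in NKO samples. Its log2 fold change was −0.23 (SE 0.057), similar in size to that of Dcn. In the RefSeq annotation, Ogn lies close to Aspn on chromosome 13 with Omd between them and Ecm2 on the other side of Aspn, and neither Ecm2 nor Omd was named in the authors' table. The neighbors of Dcn on chromosome 10, Lum, Kera and Epyc, belong to the same family and carried no name there either.

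Mfap4 encodes a glycoprotein of the microfibrils around elastin, and it was the brightest member. Its intensities were 859 and 862 in controls against 774 and 675 in NKO samples. The controls were almost equal, while the NKO samples were farther from each other than the nearer one was from the controls. The log2 fold change was −0.25 (SE 0.087). Mfap4 was the only named gene of 23 on the elastic fiber list, which also holds elastin, the fibrillins and the fibulins.

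Lect1, now named Cnmd, encodes chondromodulin, a cartilage glycoprotein that inhibits the growth of vessels and is also made in heart valves. Its intensities were 85.4 and 95.3 in controls against 56.5 and 56.4 in NKO samples. Here the NKO samples were nearly the same and the controls differed more. The log2 fold change was −0.55 (SE 0.073), and the linear means differed by −37.5%. On the cartilage list of 23 genes, 3 were named, Col9a3 and Lect1 with lower signals and Trps1, a transcriptional repressor gene of growth plate cartilage, with a higher one. Trps1 was at 577 and 571 in controls against 724 and 625 in NKO samples, a log2 fold change of 0.22 (SE 0.091).

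Fndc5 encodes a membrane protein with a fibronectin type III domain, the precursor of irisin. Its intensities were 92.3 and 88.9 in controls against 55.5 and 72.2 in NKO samples. The second NKO sample was nearer to the controls than the first. The log2 fold change was −0.43 (SE 0.12), and leaving out the first NKO sample reduced it to −0.27. On the list of 19 fibronectin type III and matricellular genes, Fndc5 was lower, Spp1 was higher and no other gene was named.

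Scx encodes scleraxis, a basic helix-loop-helix transcription factor of tendon progenitors that is also active in heart valve precursors, and it had 2 probe sets. The brighter one had intensities of 308 and 330 in controls against 216 and 204 in NKO samples, with a log2 fold change of −0.57 (SE 0.070). The dimmer one had intensities of 233 and 241 in controls against 195 and 166 in NKO samples, with a log2 fold change of −0.37 (SE 0.095). Both had the same direction and differed in size, and the dimmer one carries the suffix _x_at, which Affymetrix uses where some probes match other sequences. In the RefSeq annotation Scx lies within the bounds of another gene, Bop1, and Aspn and Col9a3 overlap Cenpp and Tcfl5. On the tendon and ligament list of 12 genes, Egr1, an early response factor gene also active in tendon, was the only other named gene. Egr1 had a higher signal, at 161 and 176 in controls against 257 and 252 in NKO samples, a log2 fold change of 0.55 (SE 0.070).

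Spp1 was the only member with a higher signal in NKO mutants. It encodes osteopontin, a secreted phosphoprotein of bone that binds integrins and is also made by macrophages, and its printed promoter was the only member window with AACCACA. Its intensities were 95.7 and 103 in controls against 184 and 180 in NKO samples. All 4 values were close within their genotype and far apart between genotypes. The log2 fold change was 0.78 (SE 0.066), or 1.72-fold on that scale and 1.83-fold between the linear means. The bone list of 23 genes held 2 more named genes, both with a higher signal. Sost, the gene of the Wnt antagonist sclerostin of osteocytes, was at 906 and 866 in controls against 1221 and 1179 in NKO samples. Msx2, a homeobox gene of skull and limb mesenchyme that responds to BMP, was at 585 and 572 against 707 and 699. Their log2 fold changes were 0.43 (SE 0.063) and 0.28 (SE 0.057). The mineralized tissue genes next to Spp1 on chromosome 5, Dspp, Dmp1, Ibsp and Mepe, had no name in the authors' table.

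**Figure D2:**
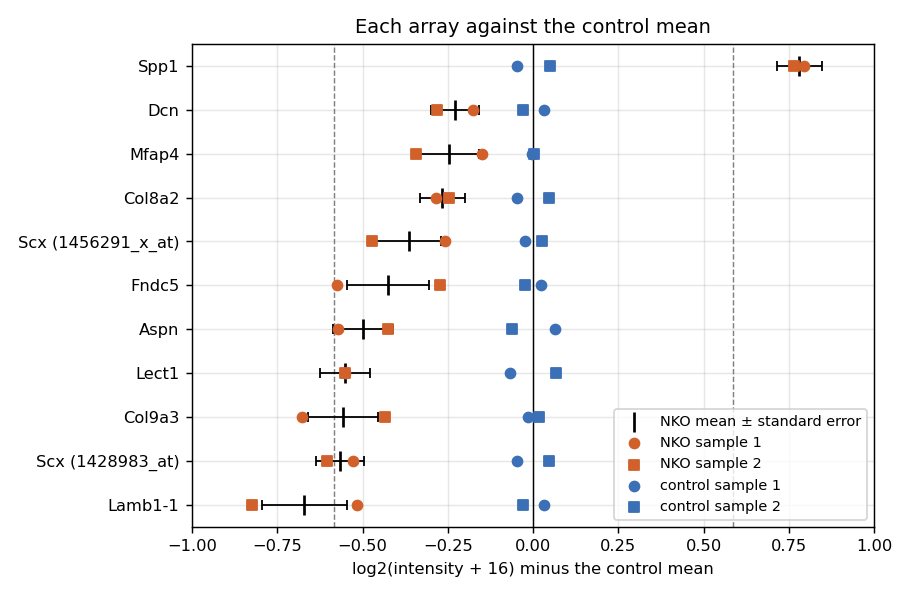
Difference of each array from the control mean for the 11 probe sets, in log2(intensity + 16), with the mean of the NKO samples and limma's SE in black and broken lines at 1.5-fold. Control samples lie on both sides of 0 at equal distances, because their mean was subtracted. The NKO samples differ from each other most for Lamb1-1 and Fndc5 and least for Lect1.

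The members differed in how well the samples of a genotype matched. The gap between the NKO samples had a median of 0.15 in log2 over the 11 probe sets, against 0.063 between the controls. The medians over all probe sets were 0.10 and 0.078. Among the 10 lower probe sets, the second NKO sample was the lower one for 6, those of Lamb1-1, Scx, Lect1, Mfap4 and Dcn, and the first NKO sample for 4, those of Fndc5, Aspn, Col9a3 and Col8a2. For Lect1 this order rested on a gap of 0.001 in log2. In 9 of the 11 probe sets the gap between the genotypes was larger than either gap within a genotype, and for Spp1 it was 7.41 times the larger of them. The exceptions were Fndc5 and Mfap4, in which the NKO samples lay 0.30 and 0.19 apart in log2 and the nearest control and NKO samples 0.25 and 0.15. Nothing is read from this count, since the members had been selected on this contrast. The share of all probe sets with such a gap is not given here.

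How many members passed a cutoff of 1.5-fold depended on the scale. On the log2(intensity + 16) scale, 1 member probe set was at least 1.5-fold lower, Lamb1-1, where 0.158% of all 45037 probe sets were, and 1 was at least 1.5-fold higher, Spp1, where 0.286% were. Between the linear means 5 were at least 1.5-fold lower, those of Lamb1-1, Lect1, Col9a3, Aspn and the brighter probe set of Scx, where 3.39% of all were, and 1 was at least 1.5-fold higher, Spp1, where 4.45% were. Both NKO samples lay below both controls for 10 of the 11 member probe sets and for 18.4% of all probe sets, and above both for 1 and for 24.2%. Nothing is read from these counts, since the same contrast had chosen the members.

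In limma over all probe sets, 0% had an adjusted p under 0.05 after Benjamini-Hochberg adjustment (lowest adjusted p = 0.276), members included. At an unadjusted p under 0.05, 3.64% of all probe sets were lower and 5.18% higher, as were 10 and 1 of the 11 member probe sets. When limma was allowed a variance trend with intensity and robust moderation, 0.46% of all probe sets were called lower and 0.695% higher at an adjusted p under 0.05, with 8 and 1 member probe sets among them. Fndc5 and Mfap4 were the member genes that were not called in that setting. These shares, too, only describe members that had been selected on the same arrays.

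**Figure D3:**
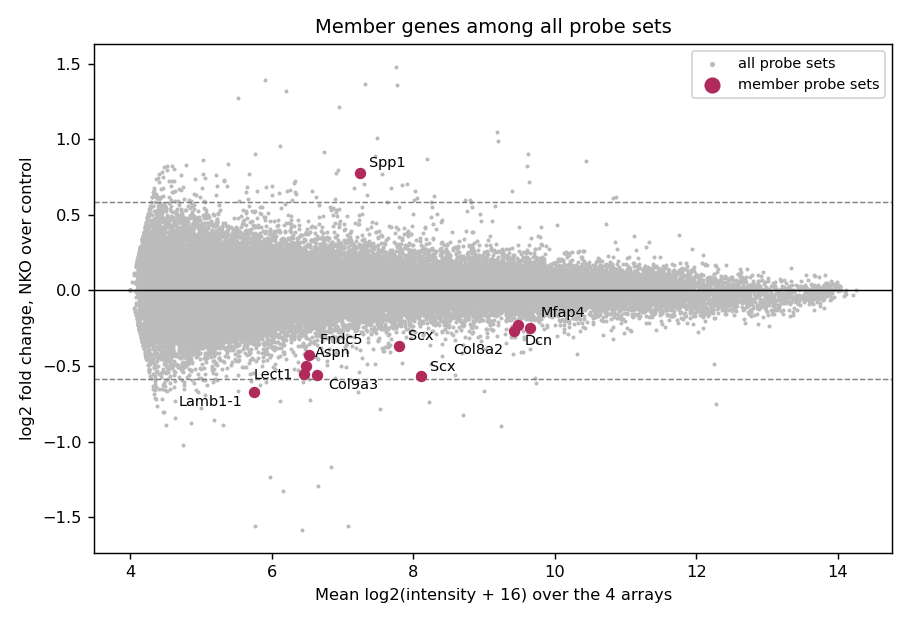
log2 fold change, NKO over control, against the mean log2(intensity + 16) for 45037 probe sets (grey) and the 11 member probe sets (red), with broken lines at 1.5-fold. Lamb1-1 is the dimmest member and lies beyond the lower line, Spp1 lies beyond the upper line, and the bright genes Mfap4, Dcn and Col8a2 lie between −0.27 and −0.23.

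Across the 9 lists of matrix and skeletal genes, with 176 genes in all, 15 genes had a named probe set. These were the 10 members and Ogn, Trps1, Sost, Msx2 and Egr1, with 10 lower and 5 higher and a median log2 fold change of −0.25. Of the 10 lower genes, 9 were members, which had been selected on this contrast, and the other was Ogn. Trps1, Sost, Msx2 and Egr1 were higher, as was the member Spp1. Among all 541 named genes, 221 were lower and 320 higher, with a median of 0.24. Nothing is read from the difference between these splits. None of 22 genes of matrix turnover, such as the matrix metalloproteinases and their inhibitors, was named. A gene without a name may still have a probe set here, because names came only from probe sets that the authors had called.

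**Figure D4:**
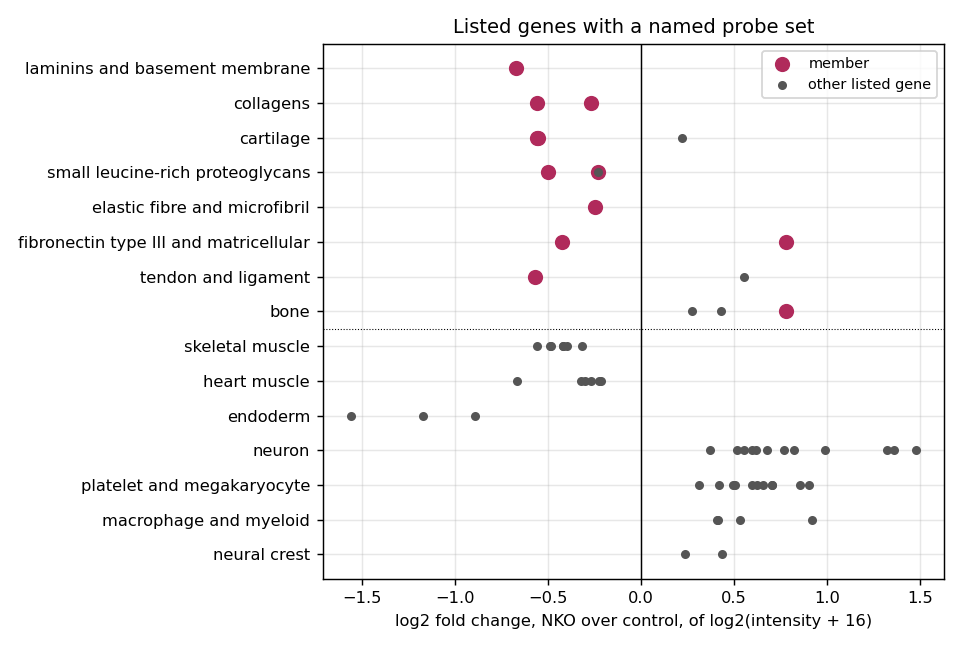
log2 fold change of each named gene of the matrix and skeletal lists (above the dotted line) and of the cell type marker lists (below it), 1 point per gene by its brightest named probe set, with members in red. Named genes of the laminin, collagen, proteoglycan and microfibril lists lie left of 0 and those of the bone list right of it. Those of the cartilage, tendon and fibronectin type III lists lie on both sides. The marker lists each lie on 1 side. In the laminin, collagen and microfibril lists the named genes are members only. Names came only from probe sets that the authors had called.

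Named markers of other cell types differed between the genotypes as well. This follows from the naming, which covered only probe sets that the authors had called. Markers without a name could not be looked up. Of 15 skeletal muscle markers, 7 were named and all 7 had a lower signal, and their summed intensity ranged from 3486 to 3496 in controls and from 2510 to 2574 in NKO samples. All 6 named of 16 heart muscle markers were lower too, with sums of 9291 to 9395 in controls against 7725 to 7819 in NKO samples. Both lists thus went the way of Scx, Fndc5 and the matrix genes. The 3 named of 12 endoderm markers, Afp, Alb and Pth, had sums of 396 to 423 in controls against 125 to 148 in NKO samples. The 4 named of 19 macrophage and myeloid markers, among them C1qa and Itgb2, went the way of Spp1, with sums of 424 to 435 in controls against 627 to 670 in NKO samples. Neuronal markers did so too, with 12 named of 18 and sums of 2490 to 2503 against 4426 to 4702, as did 11 named of 16 platelet markers, with sums of 2624 to 2652 against 4488 to 4630. None of the named markers was at 0. Some were dim, such as Alb at 42.8 and 34.1 in controls, but others were brighter than Mfap4, the brightest member. Heart muscle Tnnt2 was at 4289 and 4252 in controls against 3562 and 3743 in NKO samples. Platelet Pf4 was at 1035 and 1002 against 1893 and 1819. The sorted samples of both genotypes thus held strong signal of some markers of other cell types. Xist, which is expressed in female cells, had a log2 fold change of −0.49 and the Y-linked gene Ddx3y of 0.42. The part of these in the values of the members was not tested. In RNA from sorted bulk cells, fewer cells of a type and less RNA per cell cannot be told apart.

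The nearest patterns to the member with the lowest and the one with the highest fold change belonged to genes of other kinds. Likeness was the Euclidean distance between the 4 log2 values, each minus the control mean, among 540 other named genes. Nearest to Lamb1-1 were Zic1, a zinc finger gene of neural crest and neural tube (distance 0.11), the atrial peptide gene Nppa (0.17) and the T cell receptor component gene Cd3e (0.19). Zic1 had intensities of 102 and 106 in controls against 65.0 and 48.6 in NKO samples. Among the nearest to Spp1 were the neurogenic factor gene Neurod1 (0.060) and the neurofilament gene Nefl (0.13). Neurod1 had intensities of 126 and 131 in controls against 228 and 233 in NKO samples.

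The sizes of the fold changes depended on the offset added before log2. Their directions could not turn when 1 array was left out or the offset changed, because the genotypes do not overlap for any member probe set. With an offset of 1, Lamb1-1 was at −0.94, Lect1 at −0.67 and Spp1 at 0.87. With an offset of 64, they were at −0.35, −0.36 and 0.59. The bright genes hardly moved, Dcn lying at −0.23 and −0.22. Without 1 array, Mfap4 ranged from −0.34 to −0.15, Fndc5 from −0.58 to −0.27 and the dimmer Scx probe set from −0.47 to −0.26, while Spp1 stayed between 0.73 and 0.83. The values nearest to 0 came without the second NKO sample for Mfap4 and Scx and without the first for Fndc5.

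**Figure D5:**
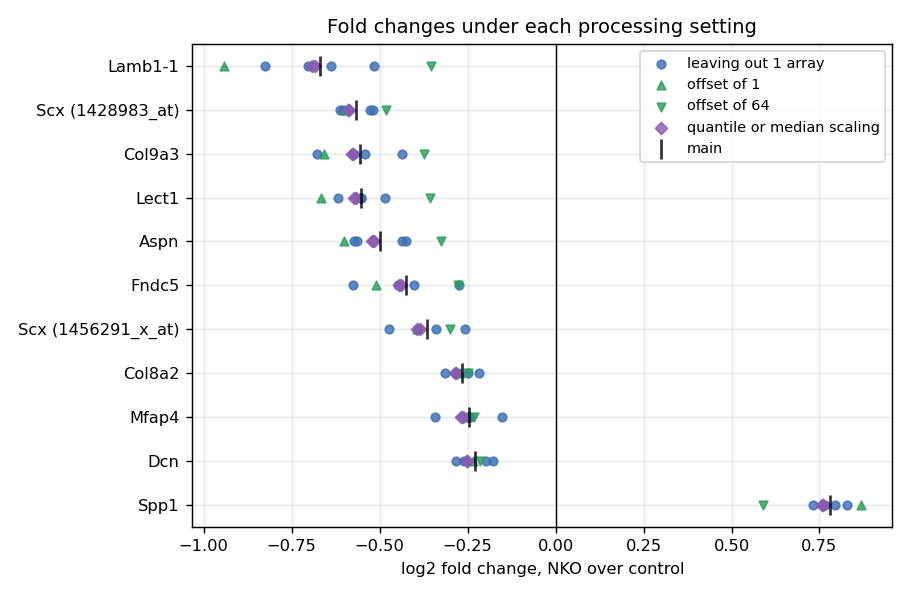
log2 fold change of the 11 probe sets in the main setting (black bars), with 1 array left out (blue), with an offset of 1 or 64 in place of 16 (green) and after quantile or median scaling (purple). The points of the dim genes Lamb1-1 and Lect1 spread farthest with the offset.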

How the data were processed

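RNA of cardiac NCCs was measured on 4 Affymetrix arrays, 2 per genotype. The authors deposited each intensity on a linear scale after a normalization that the sources used here do not describe. Affymetrix Expression Console is the tool in the submitters' processing notes. Median intensity lay between 75.9 and 79.3, and correlations between arrays between 0.9948 and 0.9968. Precision is limited by this small number of arrays.

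Of 45101 rows, 64 Affymetrix controls were left out. Genotypes were compared over all others on log2(intensity + 16) in limma 3.58.1 (lmFit, eBayes; R 4.3.3), with Benjamini-Hochberg adjustment at 0.05. Python 3.11.15, pandas 2.3.3, numpy 2.4.6 and matplotlib 3.10.9 made tables and figures. Simulated data with independent noise and known changes, placed only in probe sets brighter than the median, were used to test the fit. Changes in dim probe sets were not covered by it.

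The authors' deposited table of their VAMPIRE comparison, with 766 probe sets, was read only for names. In it 603 probe sets carry 1 name, 48 several and 115 none. It also holds fold changes and p-values, which were not used. Lamb1-1 and Lect1 were matched to Lamb1 and Cnmd through RefSeq synonyms.

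The members, the 9 gene lists and the 7 marker lists were chosen with earlier results of these data known. All member probe sets that the authors' table names alone are given. Beside them stand up to 3 named genes per list and the 3 nearest patterns of the lowest and the highest member. One result under this rule is not reported here. A gene in a list is represented by its brightest named probe set. Xist, Ddx3y, Crtac1 and single markers were chosen after their values were seen.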

Additional observations from a re-analysis of the deposited data

How the results depend on the processing

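With 2 arrays per genotype, leaving out 1 cannot move a member's fold change by more than the SD between replicates and the replicate block cannot move it at all, so that these 55 values say nothing of stability. Of the 45 other recomputed fold changes of the members, 34 moved by less than that SD and 11 by more. Of the 11, 10 came with an offset of 1 or 64 and 1 from averaging both Scx probe sets (−0.47 against −0.57). Member probe sets at least 1.5-fold lower numbered 5 with an offset of 1, 0 with 64 and 0 among probe sets brighter than the median, 2 with quantile normalization (78 in the whole table), 2 after centring arrays on their medians (87 in the whole table), and 1 to 3 without 1 array (3 without the first control, 2 without the first NKO sample). The count of lower listed genes was 6 in place of 10 among probe sets brighter than the median. On the linear means, a scale added after the data were seen, 5 member probe sets were at least 1.5-fold lower, with 1525 lower and 2002 higher in the whole table, against 71 and 129 on the log2(intensity + 16) scale. In the whole table, 1557 probe sets were at least 1.5-fold lower and 1778 higher with an offset of 1, 13 and 23 with 64, 11 and 38 among the brighter ones, and 145 to 259 and 226 to 387 without 1 array. Both NKO samples lay below both controls for 4586 and above for 6732 of the brighter ones, and for 12870 to 16300 and 15407 to 20004 without 1 array, where fewer values have to be ordered. At an unadjusted p under 0.05 in limma, 797 to 2399 were lower and 1068 to 3229 higher without 1 array. Centring each array on its median turned that split from 1641 lower and 2331 higher into 2079 and 1900. Adjusted p values under 0.05 numbered 60 with an offset of 64, 51 among the brighter probe sets, where fewer are tested, and 520 with robust moderation and a trend in intensity. The methods' t-test passed 1715 lower and 2258 higher probe sets at its threshold and 0 after Benjamini-Hochberg adjustment. With the replicate number as a block, 1417 were lower and 2023 higher at an unadjusted p under 0.05. The samples share only that number, since deviations of same-numbered samples correlated at −0.033. Where no cause is named, the cause was not tested. Dim probe sets such as that of Lamb1-1 limit what these arrays can say of fold size. The study also reports reduced Lamb1, Col9a3, Col8a2 and Fndc5 in NKO NCCs by qPCR, which was not examined here.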

Other observations

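Crtac1, which encodes a cartilage acidic protein and was on none of the lists, had intensities of 295 and 321 in controls against 271 and 242 in NKO samples. Its log2 fold change was −0.25 (SE 0.087), with both NKO samples below both controls.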
